A study of Mus musculus with 16 samples.

Results

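The Fc gamma receptors are the cell surface proteins through which leukocytes bind the constant part of IgG. The genes described here are Fcgr1, Fcgr2b, Fcgr3 and Fcgr4, which encode the receptors of the mouse, and Fcer1g, which encodes the signalling chain of the activating ones. They were chosen by gene symbol as the receptors relevant to an IgG agonist antibody. No measured value entered that rule, but earlier results of these data were known when they were chosen. Probe sets that carried only 1 of these symbols were taken, which gave 10 of the 45037 probe sets analysed and 5 of the 18193 genes with a probe set of a single symbol. Fcgr2b had 5 probe sets, Fcgr1 had 2, and the others had 1 each.

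Transcripts were measured on Affymetrix mouse arrays in 16 B16-OVA tumors, 4 in each of 4 treatment groups and each from a different mouse. The B16-OVA line is a melanoma of the mouse modified to make ovalbumin, and its cells were injected under the skin of C57BL/6-Ly5.1 mice of 6 to 12 weeks of age. MEKi+CD40 mice received the MEK inhibitor GDC-0623 by mouth at 30 mg/kg every day together with an agonist antibody to CD40. CD40 mice received that antibody and the inhibitor's vehicle, MEKi mice received the inhibitor and a control IgG, and control mice received the vehicle and the control IgG. Per the study's methods, the CD40 antibody is a chimeric molecule with a mouse IgG1 constant part, and the control antibody is a mouse IgG1, so that all 4 groups received an IgG. The antibodies were injected on days 3, 5 and 7 of treatment and on the day before analysis, and tumors were taken on day 18 after inoculation. The RNA came from tumor pieces, which hold melanoma cells together with host leukocytes, stroma and any adjacent tissue.

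An Fc gamma receptor that is cross-linked by IgG complexes either activates or restrains the cell that carries it. Fcgr1, Fcgr3 and Fcgr4 pair with the Fcer1g chain, whose activation motif (ITAM) recruits the kinase Syk and leads to phagocytosis, oxidative burst and cytokine release. Fcgr2b carries an inhibitory motif (ITIM) of its own, which recruits the lipid phosphatase Inpp5d and dampens those signals. In mice the IgG1 subclass is bound by Fcgr2b and Fcgr3 and hardly by Fcgr1 or Fcgr4, and Fcgr2b is known as the receptor that can hold agonist CD40 antibodies in place and so cluster CD40. Monocytes and macrophages can carry all 4 receptors, NK cells carry Fcgr3, and B cells carry Fcgr2b as their only Fc gamma receptor.

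Fcgr2b, Fcgr4 and Fcgr3 lie in 1 cluster on chromosome 1, at chr1:170960558-170976071, chr1:171018926-171029761 and chr1:171051169-171065915 in GRCm38.p6, with Fcer1g nearby at chr1:171229572-171234349. Fcgr1 lies alone at chr3:96282909-96293969. RefSeq promoter windows, from 250 bases before to 50 bases after the annotated start, were found for 5 of the 5 genes and searched on both strands for 3 motifs. These were the gamma-activated site TTCNNNGAA bound by interferon-activated STAT factors, the interferon-stimulated response element bound by IRF factors, read as GAAA, any 2 bases and GAAA again, and GAGGAA, a core letter string of the myeloid factor PU.1. The 150 bases before the start are shown for Fcgr1 and Fcgr4, the genes with the widest differences between groups below, and for Fcgr2b, the gene with the narrowest. Letters are in capitals where a motif matched, and each runs 5′ to 3′ on the gene's strand. The windows are chr3:96293970-96294119 (minus strand) for Fcgr1, chr1:171018776-171018925 (plus strand) for Fcgr4 and chr1:170976072-170976221 (minus strand) for Fcgr2b, all in GRCm38.p6.
Fcgr1: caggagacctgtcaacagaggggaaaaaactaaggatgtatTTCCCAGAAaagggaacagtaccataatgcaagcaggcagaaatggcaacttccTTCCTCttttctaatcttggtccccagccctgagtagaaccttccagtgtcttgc
Fcgr4: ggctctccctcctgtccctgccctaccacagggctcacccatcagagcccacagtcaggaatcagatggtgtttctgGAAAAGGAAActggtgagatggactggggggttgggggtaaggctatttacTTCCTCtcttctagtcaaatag
Fcgr2b: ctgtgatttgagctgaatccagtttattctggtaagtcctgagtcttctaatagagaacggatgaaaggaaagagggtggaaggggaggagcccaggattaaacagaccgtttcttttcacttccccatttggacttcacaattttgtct
Fcgr1 had the only gamma-activated site among the members, TTCCCAGAA, which starts 109 bases before the annotated start. Such a match was present in 8.47% of 27025 promoter windows of the same length. Fcgr4 had the only interferon-stimulated response element, GAAAAGGAAA, a motif that matched in 3.49% of windows. The PU.1 core matched on the opposite strand in Fcgr1, Fcgr3 and Fcgr4, as TTCCTC, and was present in 28.3% of all windows. No motif overlapped another in these genes, and the windows of Fcgr2b and Fcer1g held none of the 3. A match describes letters and does not show that a factor binds there.

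Signals are log2 values of the robust multichip average (RMA), so that a difference of 1 is a doubling. A background level of 4.94 was set from 44 probe sets of olfactory receptors, and 39.7% of all probe sets lay at or below it. Of the members' probe sets, 9 of 10 lay above it, and for each gene the brightest is used unless another is named. Skeletal muscle transcripts were present in 3 tumors, whose muscle marker means exceeded the control mean by 7.74 (MEKi+CD40 tumor 1), 4.88 (MEKi+CD40 tumor 3) and 3.62 log2 units (CD40 tumor 3), and the members' differences between groups are also given without them. Results for other genes are given with all tumors. Melanoma markers such as Tyrp1, an enzyme of pigment synthesis, were far above background in all 16 tumors, with a mean over 7 genes of 13.46 to 13.77. Each pair of groups was compared with limma, and a probe set was called where its p, adjusted over all 45037 by the Benjamini-Hochberg method, was under 0.05. The tests measure the spread between single tumors of a group. In whole tumors, fewer cells that carry a receptor and less receptor transcript per cell cannot be told apart.

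All 5 genes had the same order of group means, with CD40 highest, then MEKi+CD40, then control, and MEKi lowest, when all tumors were used. The one comparison in which members passed the test was that between the ends of this order, CD40 against MEKi. Between neighbours in the order no member passed it.

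Fcgr1 encodes the high-affinity IgG receptor of monocytes and macrophages. Its signals were 9.69, 8.00, 7.84 and 5.74 in MEKi+CD40 tumors, 8.10, 9.73, 10.07 and 8.54 in CD40 tumors, 5.63, 4.37, 6.78 and 5.31 in MEKi tumors, and 6.50, 7.06, 8.29 and 8.25 in control tumors. MEKi tumor 2 lay below the background level, all 4 CD40 tumors lay above all 4 MEKi tumors, and the MEKi+CD40 tumors spanned most of the range of the others. The group means were 7.82 ± 1.62, 9.11 ± 0.94, 5.52 ± 0.99 and 7.52 ± 0.89 in MEKi+CD40, CD40, MEKi and control tumors (SD, n = 4 each). A dimmer probe set of Fcgr1 (1436625_at) had a narrower range, 5.91 to 8.18 over the 16 tumors, against 4.37 to 10.07 for the brighter.

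Fcgr4 encodes a receptor of monocytes, macrophages and neutrophils that binds IgG2a and IgG2b. It measured 10.55, 9.10, 9.34 and 6.97 in MEKi+CD40 tumors, 9.57, 10.38, 11.23 and 9.07 in CD40 tumors, 7.04, 5.67, 6.82 and 6.48 in MEKi tumors, and 7.23, 7.91, 9.68 and 9.42 in control tumors. All 4 MEKi tumors lay below all 4 control tumors, by a gap between 7.04 and 7.23, and below all CD40 tumors. Fcgr4 was the only member whose MEKi and control tumors did not overlap. The means were 8.99 ± 1.49, 10.06 ± 0.95, 6.50 ± 0.60 and 8.56 ± 1.18 in MEKi+CD40, CD40, MEKi and control tumors.

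Fcgr3 encodes the low-affinity activating receptor, which myeloid cells and NK cells carry. Its values were 10.85, 9.10, 9.43 and 6.34 in MEKi+CD40 tumors, 8.98, 9.87, 11.16 and 9.17 in CD40 tumors, 7.24, 4.90, 8.51 and 6.28 in MEKi tumors, and 7.22, 7.92, 9.05 and 9.38 in control tumors. It had the widest range of any member probe set, 6.26 log2 units, and MEKi tumor 2 lay just under the background level. MEKi tumor 3 reached 8.51, above 2 of the 4 control tumors.

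Fcer1g encodes the ITAM chain that the activating receptors need at the cell surface, and that it shares with the IgE receptor and several C-type lectins. It stood at 11.45, 9.91, 10.06 and 7.66 in MEKi+CD40 tumors, 9.80, 11.18, 12.05 and 10.12 in CD40 tumors, 8.18, 6.56, 8.83 and 7.30 in MEKi tumors, and 8.17, 8.59, 10.37 and 10.34 in control tumors. The 4 CD40 tumors again lay above the 4 MEKi tumors, while the control tumors, between 8.17 and 10.37, overlapped both.

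Fcgr2b, the inhibitory receptor, varied least among the genes by the brightest probe set, over 3.24 log2 units. Its signals were 11.71, 10.25, 10.37 and 9.10 in MEKi+CD40 tumors, 10.69, 10.88, 11.69 and 10.62 in CD40 tumors, 8.53, 8.47, 9.94 and 9.49 in MEKi tumors, and 9.44, 9.60, 10.23 and 9.63 in control tumors. All 4 CD40 tumors lay above all 4 control tumors and all 4 MEKi tumors. The means were 10.36 ± 1.07, 10.97 ± 0.49, 9.11 ± 0.73 and 9.72 ± 0.35 in MEKi+CD40, CD40, MEKi and control tumors. The probe sets of Fcgr2b that came next in brightness (1435476_a_at, 1455332_x_at and 1451941_a_at) followed the same order of group means, and the dimmest one (1447622_at) stayed between 2.98 and 3.25, below background in every tumor. Some of these probe sets carry suffixes (s and x) that mark probes shared by several transcripts, and Fcgr2b and Fcgr3 are similar in their extracellular parts, so that part of the signal may come from a related transcript.

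**Figure D1:**
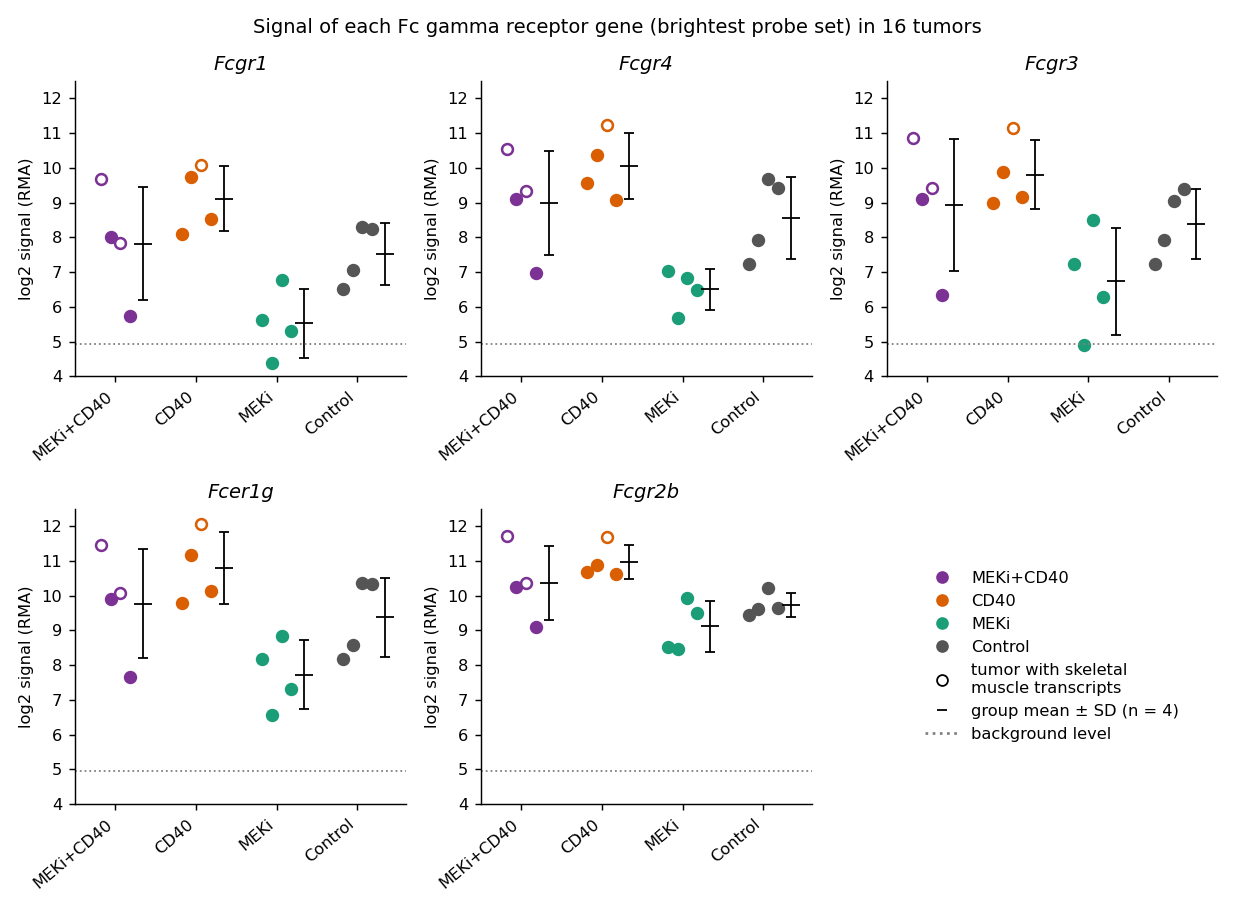
Log2 signal of the brightest probe set of each gene in 16 tumors, with the mean and SD of each group (n = 4); open circles are the 3 tumors with skeletal muscle transcripts and the dotted line is the background level of 4.94. MEKi tumors are lowest by their mean and CD40 tumors highest in each panel, MEKi+CD40 tumors spread widely, and the range is narrowest for Fcgr2b.

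The highest values of the members came from the same tumors. For each of the 5 genes, the tumor with the highest signal in its group was MEKi+CD40 tumor 1 and CD40 tumor 3, the tumors in which muscle transcripts and macrophage markers were also high. The lowest MEKi+CD40 tumor was tumor 4 for each of them. Macrophage markers were measured by 14 of 15 listed genes, 13 of them above background, and their mean was 10.00 in MEKi+CD40 tumor 1, 10.20 in CD40 tumor 3 and 6.51 in MEKi+CD40 tumor 4. The part that these differences between tumors have in the group values was not tested. Fits without the muscle tumors and with the macrophage markers as a covariate are given as descriptions. The macrophage mean itself differed between groups, at 6.57 in MEKi and 8.82 in CD40 tumors, so the covariate fits cannot divide a difference into parts.

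CD40 against control addressed what the antibody did alone. Every member had a higher mean in CD40 tumors, by 1.58 log2 units for Fcgr1 (SE 0.53, a fold of 3.00), 1.5 for Fcgr4 (SE 0.61), 1.42 for Fcer1g (SE 0.63), 1.4 for Fcgr3 (SE 0.57) and 1.25 for Fcgr2b (SE 0.25, a fold of 2.37). No member probe set passed the limma test, where 0.0% of all probe sets were called higher, and the smallest adjusted p of a member was 0.352, for Fcgr2b. At an unadjusted p under 0.05, 9 of the 10 member probe sets were higher in CD40, against 3.33% of all probe sets. The exception was the dim probe set of Fcgr2b. The CD40 and control tumors did not overlap for 4 of the 10, all of Fcgr2b, against 1.49% of all probe sets. Fcgr2b had the smallest difference of the 5 genes by its brightest probe set and also the smallest SE. By its dimmer probe set, however, Fcgr1 differed by 0.89 (SE 0.33, a fold of 1.86), less than Fcgr2b. Without the muscle tumor CD40 3 the differences were 0.95 to 1.26. With the mean of the macrophage markers as a covariate over all 16 tumors the differences shrank. They were then 0.39 for Fcgr1 (SE 0.25), 0.58 for Fcgr2b (SE 0.27), 0.43 for Fcgr4 (SE 0.37) and 0.16 for Fcer1g (SE 0.24). For Fcgr3 the value was −0.09 (SE 0.23), so no direction can be given for it in that fit.

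MEKi against control addressed the inhibitor alone. Fcgr4 had a lower mean in MEKi tumors, by 2.06 (difference −2.06, SE 0.54, adjusted p = 0.57) and Fcgr1 by 2.0 (difference −2.0, SE 0.54, adjusted p = 0.573), in linear terms 0.24 and 0.25 of the control level. Fcgr3 and Fcer1g differed by −1.66 (SE 0.73) and −1.65 (SE 0.61), and Fcgr2b by −0.62 (SE 0.33). No member was called, as 0.0% of all probe sets were called lower. At an unadjusted p under 0.05, 4 of the 10 member probe sets were lower in MEKi, against 3.32% of all probe sets, and these were the brightest of Fcgr1, Fcgr3, Fcgr4 and Fcer1g. The groups did not overlap for 1 of the 10, that of Fcgr4, against 1.68%. The dimmer probe set of Fcgr1 gave a difference of only −0.18 (SE 0.18), so the size of the Fcgr1 difference rests on the brighter one. With the macrophage covariate the differences were −1.17 for Fcgr4, −1.01 for Fcgr1, −0.60 for Fcer1g, −0.42 for Fcgr3 and −0.07 for Fcgr2b.

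In CD40 tumors compared with MEKi tumors, Fcgr4 was higher by 3.56 log2 units (SE 0.46, a fold of 11.8, adjusted p = 0.0146) and Fcgr1 by 3.59 (SE 0.56, a fold of 12, adjusted p = 0.0273). Both passed the test. The dimmer probe set of Fcgr1 differed by 1.07 (SE 0.32, a fold of 2.1) and did not pass, at an adjusted p = 0.191 by limma. In the brighter one, MEKi tumor 2 lay below the background level. The brightest probe set of Fcgr2b differed by 1.86 (SE 0.36, a fold of 3.64) and did not pass, at an adjusted p = 0.0585 by limma, while 3 of its other probe sets did, with differences of 1.30 to 1.81 and adjusted p of 0.0369 to 0.0413 by limma. Fcer1g differed by 3.07 (SE 0.59, adjusted p = 0.0555) and Fcgr3 by 3.06 (SE 0.74, adjusted p = 0.115), and neither was called. In all, 5 of the 10 member probe sets were called higher in CD40 tumors, against 0.77% of all probe sets. By the brightest probe set, 2 of the 5 genes were called, against 1.08% of all genes. The tumors of both groups did not overlap for 9 of the 10 member probe sets, against 3.65% of all.

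The calls in CD40 against MEKi held without the muscle tumor CD40 3 for Fcgr4 (3.17, adjusted p = 0.0132) and Fcgr1 (3.27, adjusted p = 0.0379), and the other genes then differed by 2.65 (Fcer1g), 2.61 (Fcgr3) and 1.62 (Fcgr2b). They depended on other single tumors and on the variance model. Without CD40 tumor 2 no member probe set was called, and Fcgr1 was also not called without MEKi tumor 1, MEKi tumor 2 or MEKi tumor 4. With a trended and robust eBayes prior neither Fcgr4 (adjusted p = 0.0501) nor Fcgr1 (adjusted p = 0.0819) was called, and 1 probe set of Fcgr2b (1435476_a_at) was. With the macrophage covariate no member was called, and the differences were 1.6 for Fcgr4, 1.4 for Fcgr1, 0.75 for Fcer1g, 0.65 for Fcgr2b and 0.33 for Fcgr3.

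**Figure D2:**
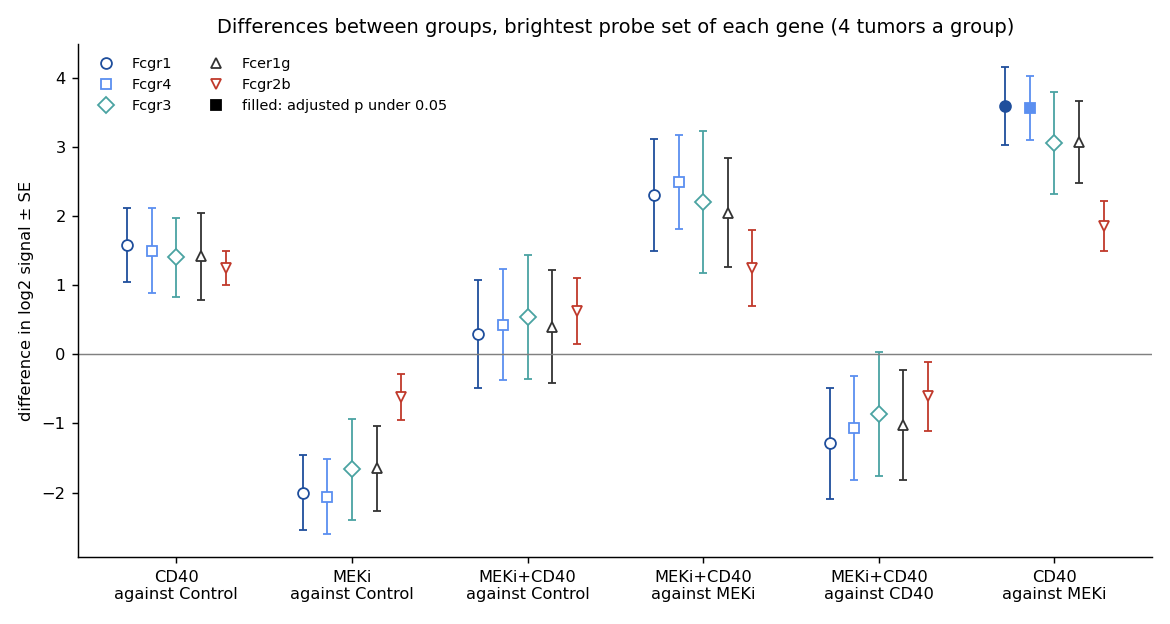
Difference in mean log2 signal between groups for the brightest probe set of each gene, with its SE from limma (4 tumors a group); filled symbols passed an adjusted p under 0.05. Only Fcgr1 (3.59) and Fcgr4 (3.56) in CD40 against MEKi are filled, and Fcgr2b lies nearest to 0 in each comparison except MEKi+CD40 against control.

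MEKi+CD40 against control gave small differences beside wide spreads. They were 0.63 for Fcgr2b (SE 0.48), 0.54 for Fcgr3 (SE 0.90), 0.43 for Fcgr4 (SE 0.80), 0.40 for Fcer1g (SE 0.82) and 0.29 for Fcgr1 (SE 0.78). No member was called, against 0.00666% of all probe sets called higher, and none of the 10 was higher at an unadjusted p under 0.05 (8.6% of all) or without overlap of the groups (5.41% of all). Without the 2 muscle tumors of MEKi+CD40 every difference turned negative, at −0.65 for Fcgr1, −0.67 for Fcgr3, −0.58 for Fcer1g, −0.53 for Fcgr4 and −0.05 for Fcgr2b. No direction can therefore be given for the combination relative to control.

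Against MEKi alone, MEKi+CD40 tumors had higher means, by 2.49 for Fcgr4 (SE 0.68, adjusted p = 0.0868), 2.30 for Fcgr1 (SE 0.81), 2.20 for Fcgr3 (SE 1.03), 2.05 for Fcer1g (SE 0.79) and 1.25 for Fcgr2b (SE 0.55). No member passed, against 0.526% of all probe sets called higher, and MEKi+CD40 tumor 4 lay within the range of the MEKi tumors for all 5 genes. Leaving out that tumor, Fcgr4 was called, with a difference of 3.16 and an adjusted p = 0.0374 by limma. The dimmer probe set of Fcgr1 differed by 0.56 (SE 0.35). At an unadjusted p under 0.05, 4 of the 10 member probe sets were higher, against 8.5% of all. Without the 2 muscle tumors the differences were smaller, at 1.53 for Fcgr4, 1.35 for Fcgr1, 1.07 for Fcer1g, 0.99 for Fcgr3 and 0.57 for Fcgr2b, and with the macrophage covariate they were 0.10 (Fcgr3) to 0.98 (Fcgr4).

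Against CD40 alone, MEKi+CD40 tumors had a lower mean of every member, with differences of −1.29 for Fcgr1 (SE 0.80), −1.07 for Fcgr4 (SE 0.75), −1.02 for Fcer1g (SE 0.80), −0.86 for Fcgr3 (SE 0.90) and −0.61 for Fcgr2b (SE 0.50). None was called, against 2.46% of all probe sets called lower, and none was lower at an unadjusted p under 0.05, against 10.6% of all. Without the 3 muscle tumors the differences were −1.92 for Fcgr1, −1.64 for Fcgr4, −1.58 for Fcer1g, −1.62 for Fcgr3 and −1.06 for Fcgr2b. Without MEKi+CD40 tumor 4 they were −0.60 for Fcgr1, −0.40 for Fcgr4, −0.31 for Fcer1g, 0.00 for Fcgr3 and −0.19 for Fcgr2b. With all tumors, the dimmer probe set of Fcgr1 differed by −0.51 (SE 0.45).

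The interaction compares the antibody's difference in inhibitor-treated mice with that in vehicle-treated mice. It was 0.98 for Fcgr4 (SE 1.00), 0.80 for Fcgr3 (SE 1.27), 0.71 for Fcgr1 (SE 1.04), 0.63 for Fcer1g (SE 1.09) and 0.01 for Fcgr2b (SE 0.65), with no member called and 0.0% of all probe sets called higher. For every member the SE was larger than the interaction itself. The dimmer probe set of Fcgr1 gave −0.34 (SE 0.52). Without the muscle tumors it was 0.42 for Fcgr4, 0.04 for Fcgr3, 0.08 for Fcgr1, 0.07 for Fcer1g and −0.44 for Fcgr2b.

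The members differed among themselves in how far they moved in MEKi against control, where Fcgr2b moved least by the brightest probe sets. The dimmer probe set of Fcgr1 moved less still there, by −0.18. In each tumor the signal of an activating gene minus that of Fcgr2b was taken and the control mean set to 0, which compares changes and not levels. In MEKi tumors this was −1.44 ± 0.76 for Fcgr4, −1.38 ± 0.65 for Fcgr1, −1.04 ± 1.18 for Fcgr3 and −1.03 ± 0.83 for Fcer1g, against 0.00 ± 0.94, 0.00 ± 0.68, 0.00 ± 0.84 and 0.00 ± 0.94 in control tumors (SD, n = 4 each). For Fcgr1 the MEKi tumors stood at −0.70, −1.90, −0.96 and −1.98, against −0.74, −0.34, 0.26 and 0.82 in control tumors, an overlap of MEKi tumor 1 with control tumor 1. In CD40 tumors the 4 differences were between 0.16 and 0.34, and in MEKi+CD40 tumors between −0.34 and −0.10, all smaller than their SD. With the mean of both Fcgr1 probe sets in place of the brighter, and of all Fcgr2b probe sets, the MEKi value of Fcgr1 was −0.65 in place of −1.38. These values combine members and are given without a test.

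**Figure D3:**
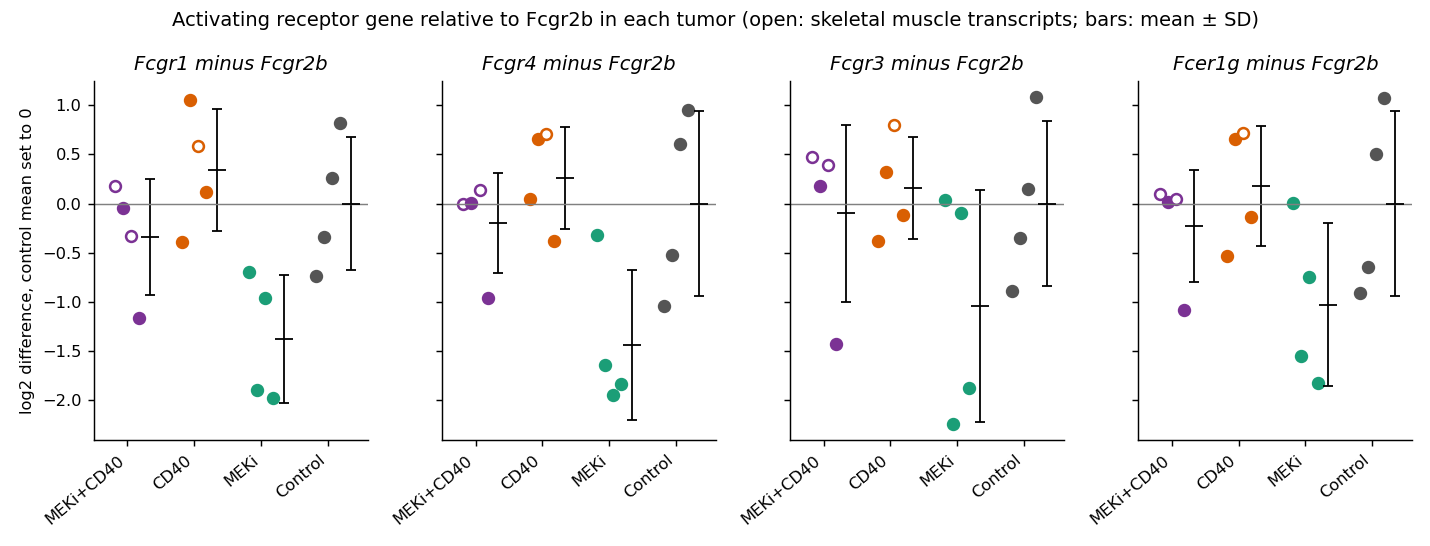
Log2 signal of each activating gene minus that of Fcgr2b in each of 16 tumors, set to 0 at the control mean, with the group mean and SD (n = 4); open circles are tumors with skeletal muscle transcripts. MEKi tumors have the lowest mean in every panel, at −1.38 for Fcgr1 and −1.44 for Fcgr4, with 1 or more tumors inside the control range.

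Genes with the most similar pattern over the 16 tumors included, for each activating member, genes known from leukocytes. Among 12685 genes above background, the Pearson r of Fcgr4 was 0.994 with Aif1, a cytoskeletal protein of macrophages, and 0.988 with Cd48. Fcgr3 had r of 0.992 with Laptm5, a lysosomal protein of leukocytes, and 0.991 with Tyrobp, the other common ITAM adaptor of myeloid cells. Fcer1g had r of 0.994 with Lpxn and 0.991 with Tyrobp, and Fcgr1 had r of 0.986 with Fcer1g and 0.985 with Lpxn. For Fcgr2b the highest were lower, at 0.950 with Ifi204 and 0.947 with Ifi207, both interferon-inducible genes, 0.945 with Il13ra1, a receptor chain for IL-13, and 0.945 with Ncf4, a subunit of the phagocyte oxidase. Between members, r ranged between 0.942 and 0.986 among the activating genes, and between 0.886 and 0.922 for each of them with Fcgr2b. With group means removed these ranges became 0.910 to 0.980 and 0.780 to 0.870. Tumors of a group share their treatment and leukocyte content, and each r describes these 16 arrays.

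The macrophage markers moved with the members. Their mean signal was 6.51 to 10.00 in MEKi+CD40, 8.06 to 10.20 in CD40, 5.52 to 8.15 in MEKi and 6.57 to 8.44 in control tumors. Of the 14, 2 were called higher in CD40 against MEKi, where 1.08% of all genes were. These were Cd68 (2.74, adjusted p = 0.0417) and the scavenger receptor Msr1 (3.14, adjusted p = 0.0275), and none was called in either treatment against control. Of 7 pan-leukocyte markers, 6 had the members' order of group means. Of these, 3 (Lcp1, Cd52 and Cd48) were called higher in CD40 against MEKi, against the same 1.08% of all genes. The exception was Arhgdib, which was lowest in MEKi+CD40 tumors and was called lower in MEKi+CD40 against CD40 (difference −0.69, SE 0.15, adjusted p = 0.0407). Relative to the macrophage mean of the same tumor, with control set to 0, MEKi tumors stood at −0.98 ± 0.31 for Fcgr1, −1.03 ± 0.86 for Fcgr4, −0.64 ± 0.53 for Fcgr3, −0.63 ± 0.37 for Fcer1g and 0.41 ± 0.86 for Fcgr2b, and control tumors had SDs of 0.15, 0.40, 0.14, 0.36 and 0.71 for these genes. For the brighter probe set of Fcgr1 all 4 MEKi tumors, between −1.30 and −0.56, lay below the lowest control tumor at −0.12. The dimmer one (1436625_at) was not set on this scale. Its signals were 6.44, 5.91, 6.37 and 5.99 in MEKi tumors and 5.96, 6.32, 6.40 and 6.73 in control tumors, which overlap. The share of all probe sets without overlap on this scale was not taken. CD40 tumors had means of 0.02 to 0.36 and MEKi+CD40 tumors of −0.42 to −0.08.

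On that scale MEKi tumor 3 was the lowest MEKi tumor for Fcgr4 (−2.30), Fcgr1 (−1.30) and Fcer1g (−1.09), while MEKi tumor 2 was lowest for Fcgr3 (−1.42). The macrophage mean of MEKi tumor 3 was 8.15 and that of control tumor 3 was also 8.15, but Fcgr4 stood at 6.82 in the MEKi tumor and 9.68 in the control tumor. Fcgr1 was 6.78 in that MEKi tumor and 8.29 in the control tumor by the brighter probe set, but 6.37 and 6.40 by the dimmer. Fcgr3, at 8.51 in that MEKi tumor and 9.05 in the control tumor, had values closer than those of the brighter Fcgr1 probe set. So did Fcgr2b, at 9.94 and 10.23. The markers were not the same within that mean. Cd163, a scavenger receptor of resident and alternatively activated macrophages, had a signal of 8.15 in MEKi tumor 3 and 4.10 in control tumor 3, and Mrc1, the mannose receptor, 9.09 and 7.54. Csf1r, Cd14 and Lyz2 were also higher in that MEKi tumor. All other markers of the list were lower there, among them Cd68 (7.86 and 9.26), C1qb (9.26 and 10.74), Msr1 (7.44 and 8.55) and Adgre1 (6.65 and 7.61). An equal mean is therefore not an equal level of each marker. The gap seen in that pair was not seen in every pair. MEKi tumor 1 and control tumor 1 also had close marker means, at 6.67 and 6.57. Their signals were 7.04 and 7.23 for Fcgr4, 7.24 and 7.22 for Fcgr3, and 8.18 and 8.17 for Fcer1g. Fcgr1 was 5.63 and 6.50 by the brighter probe set, and Fcgr2b 8.53 and 9.44. Leaving out MEKi tumor 3, the MEKi mean of Fcgr4 relative to the markers was −0.61 in place of −1.03.

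**Figure D4:**
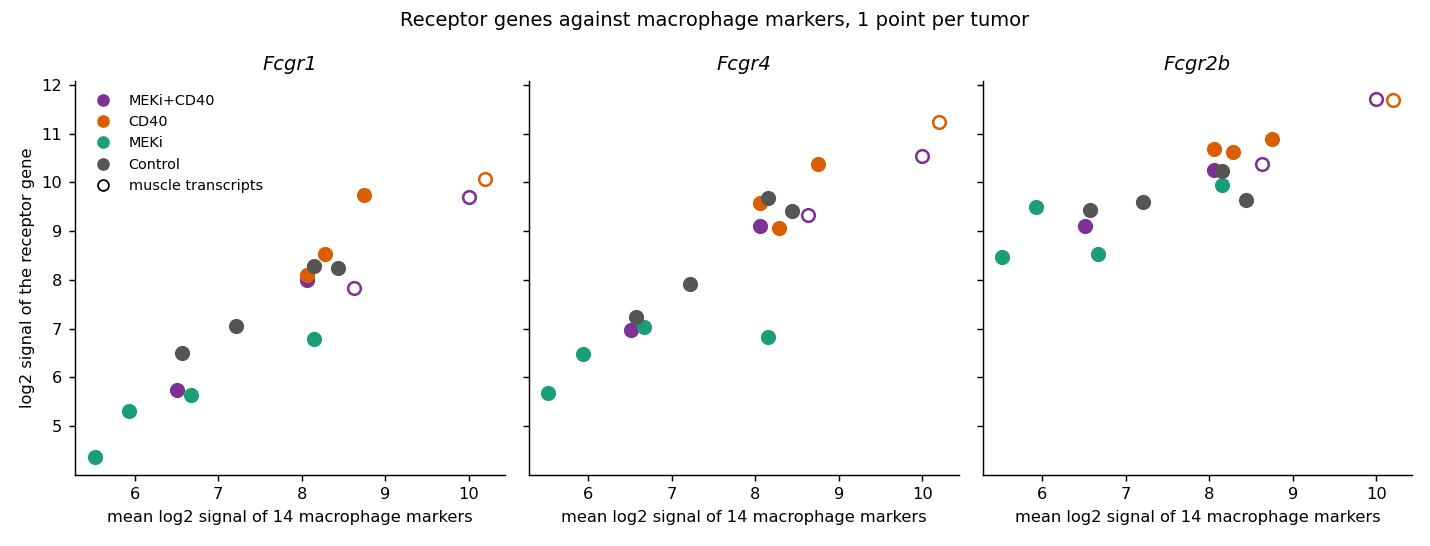
Log2 signal of Fcgr1, Fcgr4 and Fcgr2b against the mean log2 signal of 14 macrophage markers, 1 point per tumor, coloured by group; open circles are tumors with skeletal muscle transcripts. All 3 genes are higher where the markers are higher. MEKi tumor 3, at a marker mean of 8.15, lies below the control tumor at the same mean for Fcgr4 (6.82 against 9.68) and Fcgr1 (6.78 against 8.29). The Fcgr1 values are of the brighter probe set, and the dimmer one, not drawn, measured 6.37 and 6.40 in these tumors. MEKi tumor 1 and control tumor 1, at marker means of 6.67 and 6.57, measured 7.04 and 7.23 for Fcgr4 and 5.63 and 6.50 for Fcgr1.

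Markers of other cells that carry these receptors differed in how many lay above background. For B cells 1 of 8 measured markers (Pax5, mean 4.95 to 5.17 by group) lay above it, and Ms4a1, Cd79a and Cd79b did not. For NK cells 1 of 5 did, Klrd1, with Ncr1 and Eomes at or below background. For mast cells and basophils 2 of 8 did, and Fcer1a, the IgE receptor chain that pairs with Fcer1g, was at or below background. Neutrophil markers lay above background for 6 of 8, with list means of 4.88 to 7.01 in MEKi+CD40, 4.83 to 6.54 in CD40, 4.76 to 5.09 in MEKi and 4.69 to 5.26 in control tumors, and none was called in any comparison. Their highest means were in the 3 muscle tumors. Dendritic cell markers lay above background for 4 of 7, with list means of 5.04 to 5.44 in MEKi+CD40, 5.27 to 5.69 in CD40, 5.10 to 5.24 in MEKi and 5.16 to 5.46 in control tumors. One of them, Itgax, an integrin chain that macrophages can also carry, was called higher in CD40 than in MEKi tumors (1.97, SE 0.36, adjusted p = 0.0467), while Xcr1, Cd209a and Ccr7 were at or below background. The part of these cells in the members' signals was not tested.

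Of 10 measured genes for other Fc receptors and IgG handling, 3 lay above background. Fcgrt, the neonatal receptor that returns IgG from endosomes to the blood, was higher in MEKi+CD40 than in CD40 tumors by 0.95 (SE 0.21, adjusted p = 0.0431), with means of 9.41 ± 0.29, 8.46 ± 0.36, 8.64 ± 0.32 and 8.40 ± 0.27 in MEKi+CD40, CD40, MEKi and control tumors. In that comparison 3.15% of all genes were called higher. Its 4 MEKi+CD40 tumors, at 9.70, 9.11, 9.63 and 9.22, lay above all other tumors, the highest of which was MEKi tumor 3 at 9.01. Of all probe sets, 7.52% were higher without overlap in MEKi+CD40 against CD40, 5.22% against MEKi and 5.41% against control. The values 9.70 and 9.63 are of the muscle tumors, and no fit of Fcgrt without them is given. Trim21, the cytosolic IgG receptor and an interferon-induced gene, was higher in CD40 than in MEKi tumors by 2.00 (SE 0.27, adjusted p = 0.0176), with means of 9.86 ± 0.47 and 7.86 ± 0.45. Fcrls, with group means of 4.86 to 5.29, was barely above background. Of 6 measured ligand genes none was called in any comparison, and the group means of Ighg3, an IgG heavy chain gene, were 5.95, 6.01, 5.97 and 5.83 in MEKi+CD40, CD40, MEKi and control tumors. Ptx3, a pentraxin that binds Fc gamma receptors, had an SD of 2.91 in MEKi+CD40 tumors.

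Listed ITAM adaptors with partner receptors, and listed ITAM signalling genes, had median differences of the members' sign in each pair of groups, with few calls. The first list includes Tyrobp and other adaptors and is not limited to partners of Fcer1g. In the interaction the medians of these lists were −0.05 and −0.09, against 0.71 for the members. Of 12 measured adaptors and partner receptors, none was called in any comparison, although in CD40 against control Clec4e, Clec4n and Clec4d, lectins that signal through Fcer1g, had higher means by 3.18 (SE 0.92), 2.58 (SE 0.54) and 2.42 (SE 0.65). In MEKi against control the same lectins differed by −0.47 (SE 0.45), −0.40 (SE 0.60) and −0.57 (SE 0.55). Of 17 measured genes of ITAM signalling, 1 was called, in CD40 against MEKi, where 1.08% of all genes were called higher. It was Lat2, an adaptor that is phosphorylated after receptor cross-linking, higher in CD40 tumors by 1.86 (SE 0.34, adjusted p = 0.0449). The median difference of the 17 in that comparison was 0.81, against −0.05 over all genes, and that of the 5 members 3.07. For the inhibitory arm, 0 of 11 measured genes were called in any comparison. Ptpn6, the ITIM-bound tyrosine phosphatase, had a lower mean in MEKi than in control tumors and did not pass the test (difference −0.67, SE 0.18, adjusted p = 0.57).

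Genes of the phagocytic cup and oxidase had 2 of 10 calls in CD40 against MEKi, against 1.08% of all genes called higher. The median difference of the 10 there was 2.30. Cyba, a membrane subunit of the phagocyte oxidase, was higher in CD40 tumors by 1.42 (SE 0.21, adjusted p = 0.0222) and in MEKi+CD40 tumors than in MEKi tumors by 1.30 (SE 0.23, adjusted p = 0.0496), where 0.764% of all genes were called higher. Rac2, the GTPase of that complex, was higher in CD40 than in MEKi tumors by 2.60 (SE 0.39, adjusted p = 0.0232). In MEKi against control all 10 had a negative difference, with a median of −0.90 against 0.01 over all genes. At an unadjusted p under 0.05, 7 were lower, against 3.32% of all probe sets, but none was called.

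Interferon gamma is a known inducer of Fcgr1 and Fcgr4. Of 16 measured inducers and repressors of Fc receptor expression, 3 were called higher in CD40 against MEKi, against 1.08% of all genes. None was called in any other comparison. Ifng itself was higher in CD40 tumors by 2.58 (SE 0.47, adjusted p = 0.0471), with signals of 5.83, 7.56, 7.84 and 5.70 in CD40 tumors and 4.23, 4.43, 3.97 and 3.99 in MEKi tumors. All 4 MEKi values lay below the background level of 4.94, so the difference is set in part by that level. The interferon-induced factors Irf1 and Irf8 were higher in CD40 tumors by 3.14 (SE 0.48, adjusted p = 0.0249) and 3.10 (SE 0.42, adjusted p = 0.0171). Spi1, which encodes PU.1, differed by 1.33 (SE 0.39, adjusted p = 0.18). In MEKi tumor 3, whose macrophage mean was high, Irf8 stood at 5.93 and Irf1 at 7.89, at or near the lowest of the 16 tumors. MEKi tumor 2, with a macrophage mean of 5.52, was about as low, at 6.01 and 7.88. Any link of these genes to the members' signals was not tested. Il4 and Il10, whose products are known to alter Fc receptor expression, were at or below background.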

How the data were processed

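Transcripts were measured on 16 arrays, 1 per tumor and 4 per group, from 200 ng of RNA each. The deposited log2 values were made by the authors with quality control and RMA normalization in Chipster (RMA version: not given in the sources used here). They were used as deposited, after 64 Affymetrix control probe sets were left out. RMA makes the arrays share 1 distribution of signals, so differences are relative to all transcripts of a tumor, and no array was left out. Of the 45037 probe sets, 34945 had 1 gene symbol, 932 had several and 9160 had none in the platform annotation, and the first kind was used for genes.

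Groups came from the sample labels. Following the study's methods, which test 2 groups at a time, pairwise fits held 8 arrays, and the interaction fit held 16. The functions lmFit and eBayes (limma 3.58.1, R 4.3.3) were used, with Benjamini-Hochberg adjustment over all probe sets. Precision is limited by the number of arrays, with a median SE over probe sets of 0.103 to 0.119 for pairwise differences. The fit was tested on simulated data.

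The members and the gene lists, 184 genes outside the members of which 161 were measured, were chosen with earlier results of these data known. Named are the members, and from each list the 3 genes above background with the smallest p against control. The 4 genes most like each member and the listed genes that were called are also named. A few were chosen after their values were seen (Ifng, Spi1, Cd163, Mrc1, other macrophage markers named beside these, and those given as absent markers). The alternatives were all arrays in 1 fit, the replicate number as a block, leaving out dim probe sets, median centring, cyclic loess, a trended and robust eBayes prior, averaging the probe sets of each gene, leaving out tumors with muscle transcripts over 2 log2 units above control, the macrophage mean as a covariate, and leaving out each tumor. For the values relative to macrophage markers and the similarity of genes they were added after seeing the data. The number in the sample titles was checked as a pairing and did not pair the tumors. Promoter windows came from RefSeq (GRCm38.p6), and Python 3.11.15 was used for tables (pandas 2.3.3, numpy 2.4.6) and for figures (matplotlib 3.10.9).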

Additional observations from a re-analysis of the deposited data

Results flagged for a closer look

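In 40 groups of 4 tumors (10 member probe sets in 4 groups), a single tumor stood far from the others in 2, and chance alone gives about 1 in 20. The dim Fcgr2b probe set 1447622_at measured 3.17 in MEKi tumor 1, against 2.99 to 3.02 in the other MEKi tumors, all below the background level. The Fcgr2b probe set 1455332_x_at measured 9.24 in control tumor 3, against 8.57 to 8.62 in the other control tumors, and the brightest Fcgr2b probe set was also highest there, at 10.23. No member passed the interaction test.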

How the results depend on the processing

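In CD40 against MEKi, 5 member probe sets were called, 3 with cyclic loess, 3 without the muscle tumor, 1 with eBayes trend and robust (Fcgr2b, with Fcgr1 and Fcgr4 not called) and 0 with the macrophage covariate. Leaving out single tumors gave 0 to 7, with 0 without CD40 tumor 2. In MEKi+CD40 against MEKi the count of 0 became 1 (Fcgr4) with all 16 arrays in 1 fit, and 0 to 1 without single tumors. In MEKi+CD40 against CD40 the count of 0 became 1 without the muscle tumors (a dimmer probe set of Fcgr2b, −0.82, adjusted p = 0.0448 by limma) and 1 with the macrophage covariate (Fcgr1, −0.79, adjusted p = 0.0357 by limma). The fit without the muscle tumors held only MEKi+CD40 tumors 2 and 4 and CD40 tumors 1, 2 and 4. In the 4 other comparisons no alternative called a member. The cause of these changes was not tested.

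With the replicate block, 7 member probe sets were called in CD40 against MEKi, the brightest of Fcgr2b (adjusted p = 0.0359 by limma) and Fcer1g (adjusted p = 0.0481 by limma) among them, and 0 elsewhere. Same-numbered tumors shared only a number: between 0 and 3 of 4 pairs correlated over 0.1 in a comparison.

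Some directions turned. For MEKi+CD40 against control, values without the muscle tumors were −0.65 (Fcgr1), −0.05 (Fcgr2b), −0.67 (Fcgr3), −0.53 (Fcgr4) and −0.58 (Fcer1g), those with the macrophage covariate −0.40 (Fcgr1), −0.32 (Fcgr3), −0.19 (Fcgr4) and −0.33 (Fcer1g), and those without single tumors −0.33 to 0.99 (Fcgr1), −0.10 to 1.4 (Fcgr3), −0.09 to 1.10 (Fcgr4) and −0.16 to 1.11 (Fcer1g). With the macrophage covariate, Fcgr3 was −0.09 (SE 0.23) in place of 1.4 in CD40 against control, and Fcgr3 minus Fcgr2b −0.32 in place of 1.2 in CD40 against MEKi. The Fcgr2b interaction of 0.01 was −0.08 with the mean of all probe sets, −0.44 without the muscle tumors, −0.27 with the macrophage covariate and −0.45 to 0.42 without single tumors.

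Counts over all probe sets moved most where MEKi+CD40 entered. They were 4 in MEKi+CD40 against control (0 to 4904 over the alternatives), 518 against MEKi (0 to 4699), 2133 against CD40 (0 to 7148), 402 in CD40 against MEKi (0 to 493) and 0 in the interaction (0 to 560). In CD40 against control and MEKi against control they were 0 (at most 4 and 2), with 1501 higher and 2356 lower in the first, and 1613 higher and 1497 lower in the second, at an unadjusted p under 0.05.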
